A study of Mus musculus with 2 samples.

Results

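Dendritic cells are the antigen-presenting cells that link innate and adaptive immunity. In the liver they comprise plasmacytoid dendritic cells (pDC), which sense nucleic acids and secrete type I interferon, and conventional dendritic cells (cDC), which carry antigen to T cells. cDC1 cross-present antigen to CD8+ T cells and carry the chemokine receptor XCR1 and the dead-cell receptor CLEC9A, whereas cDC2 prime CD4+ T cells and include cells with the lectin CD209A. The transcription factor TCF4 (E2-2) directs the pDC program, IRF8 acts in pDC and cDC1, and ID2 opposes TCF4 in cDC.

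The nuclei described here were chosen by their own UMI counts (unique molecular identifiers, 1 per captured RNA molecule) in single-nucleus RNA-seq of mouse liver. A nucleus was taken when it had at least 300 detected genes and at most 6000 UMIs, at least 2 UMIs in all of *Siglech*, *Flt3*, *Zbtb46*, *Xcr1*, *Clec9a* and *Cd209a*, and at most 1 UMI in all of *Reln*, *Dcn*, *Ptprb*, *Clec4g*, *Clec4f*, *Pkhd1*, *Bcl11b* and *Pax5*. The rule found 261 nuclei among 20111 barcodes, or 1.30% of the 20081 with at least 300 genes. Since these genes selected the nuclei, their levels are a description of the selection and support nothing else. The same holds for the other genes of the same nuclei, so that every comparison below is given as measured values with counting intervals and without a test.

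The study compared 2 libraries of C57BL6/J male mice. The Flox library came from *Themis* flox/flox mice, and the HKO library from mice that in addition carried Alb-Cre, a Cre recombinase driven by the albumin promoter of hepatocytes. All mice had received a MASH diet for 5 months from 10 to 12 weeks of age, which held 2% cholesterol and drew 40 kcal% from fat and 20 kcal% from fructose, and no chow-fed mice were analysed here. Livers of several mice per genotype were pooled before nuclei were isolated, so a library cannot be split into animals and there was 1 library per group. Genotype, pool and sequencing depth therefore cannot be told apart.

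The libraries held 58171337 and 40475938 UMIs in all for Flox and HKO. *Themis*, the targeted gene, was measured at 159 CPM (UMIs of a gene relative to all UMIs of the summed nuclei and scaled to a fixed total) in hepatocyte nuclei of the library labelled Flox and at 252 CPM in those labelled HKO. The 3′ tags need not lie in the deleted part of the gene, whose position is not given in the sources used here, so that this level does not check the genotype, and the library names below are those of the labels. Only 1 and 6 *Themis* UMIs fell in the selected nuclei. The libraries shared 27 barcodes, none of them among the selected nuclei.

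The selected nuclei fell into unlike kinds. *Siglech*, a sialic acid-binding receptor of mouse pDC, was detected in 52 nuclei, 28 of the Flox library and 24 of the library labelled HKO. The 209 *Siglech*-negative nuclei were divided further after their values had been seen. *Xcr1* was present in 26 of them, 12 and 14 per library, and *Cd209a* in 13, 4 and 9 per library. A further 46 had *Flt3*, the receptor for the growth factor that drives dendritic cell development, or *Zbtb46*, a zinc finger factor of cDC, namely 25 and 21 per library. The remaining 124 nuclei, 33 and 91 per library, had been selected on *Clec9a* alone and made up 47.5% of the total.

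**Figure D1:**
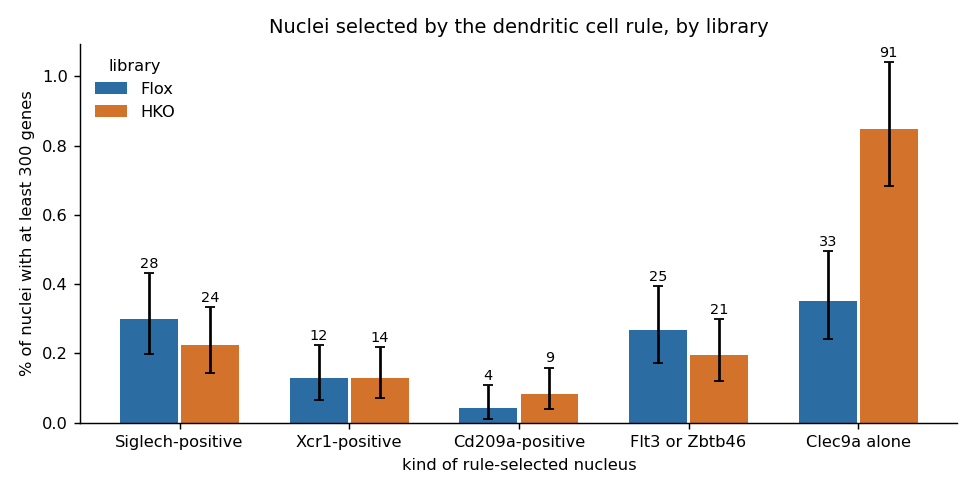
Share of nuclei with at least 300 genes (vertical axis, %) that fell in each kind of selected nucleus (horizontal axis), for the Flox and HKO libraries. Bars start at 0, whiskers are exact Clopper-Pearson 95% intervals for counting error, and the number above each bar is the number of nuclei. The nuclei selected on *Clec9a* alone, 33 and 91, are the ones whose intervals do not overlap between libraries.

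The share of selected nuclei was 1.09% (95% exact Clopper-Pearson interval 0.889 to 1.32) in the Flox library and 1.48% (1.26 to 1.73) in that labelled HKO. The ratio of shares was 1.36 (exact conditional binomial interval 1.05 to 1.76, counting error only), but 0.853 (0.661 to 1.10) among nuclei other than hepatocytes and 0.660 (0.511 to 0.854) per macrophage nucleus. *Siglech*-positive nuclei were 0.299% and 0.224% of all nuclei, a ratio of 0.748 (0.415 to 1.34). *Siglech*-negative nuclei other than those with *Clec9a* alone were 0.438% and 0.410%, a ratio of 0.937 (0.598 to 1.47). Nuclei with *Clec9a* alone were 0.353% and 0.849%, a ratio of 2.41 (1.60 to 3.70), so the higher total among all nuclei of the library labelled HKO rested on them. Their ratio was 1.51 (1.003 to 2.32) among nuclei other than hepatocytes and 1.17 (0.776 to 1.79) per macrophage nucleus. Without the nuclei with *Clec9a* alone the log2 ratio of shares was -0.22, and the ratios of both remaining kinds given above have intervals that include 1. The denominators were not alike either: 48.1% of Flox nuclei with 300 genes lay at or below 6000 UMIs and 76.4% of those labelled HKO, and hepatocyte nuclei numbered 5828 and 4266. Set against macrophage nuclei, of which there were 278 and 657, the ratio was 0.363 (0.201 to 0.649) for *Siglech*-positive and 0.454 (0.290 to 0.713) for the other *Siglech*-negative nuclei.

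The label of dendritic cells was not borne out for most of the nuclei with *Clec9a* alone. Of these, 84 also had 3 or more UMIs of the macrophage markers *Adgre1*, *Vsig4*, *Clec4f*, *Timd4*, *Cd5l*, *Gpnmb* and *Trem2*, 28 of 33 in the Flox library and 56 of 91 in the other. Among the 28 *Siglech*-positive Flox nuclei and the 24 labelled HKO there was no such nucleus, and among the other *Siglech*-negative nuclei there were 3 of 85. A list of 24 further macrophage genes summed to 20626 and 14062 CPM in the nuclei with *Clec9a* alone and to 21766 and 16413 CPM in macrophage nuclei, which are nuclei with at least 3 UMIs of the 7 markers and none of the rule genes. Macrophage nuclei could hold any number of *Clec4f* UMIs, whereas the rule allowed selected nuclei at most 1 UMI of all exclusion genes, *Clec4f* included. The list of 14 MHC class II pathway genes, of which 13 were in the files, summed to 5298 and 5337 CPM in them and to 4627 and 4933 CPM in macrophages. In sum they thus carried macrophage genes near macrophage levels in either library. They were not all alike, since 2 Flox nuclei and 17 labelled HKO had no UMI of the 7 markers. Among 500 UMIs drawn at random from each nucleus, single nuclei labelled HKO with *Clec9a* alone held up to 10 cDC1 and up to 16 pDC marker UMIs, against at most 3 and 6 in macrophage nuclei.

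Gene by gene, nuclei with *Clec9a* alone differed little from macrophage nuclei. A gene was called higher or lower when the ratio of CPM + 5 was at least 2-fold in the same direction in each library, among genes with at least 20 UMIs observed in the subset or 20 to be had at the level of the macrophage nuclei. Of 2868 such genes 5 were higher (0.174%) and 8 lower (0.279%). The higher ones were *Fcgr2b*, the inhibitory Fc receptor, *Prpf31*, *Ccr2*, a chemokine receptor of monocytes, *Kcnj2* and *Gm43914*, with pooled log2 differences from 1.09 to 1.36. Among the lower were *Igha* and *Jchain*, both of plasma cells, and *Cd163*, a scavenger receptor of resident macrophages. The limit on *Clec4f* was not the same in the 2 groups, and its part in calls such as *Cd163* and *Ccr2* was not tested. None of the 4 tested cDC1 markers, the 5 tested pan-cDC markers and the 9 tested MHC class II genes was called in either direction. With so few calls among all 2868 genes, the lack of a call says nothing particular about these lists. Because most of the nuclei with *Clec9a* alone had macrophage markers, they are named by their rule gene below, and results are given with and without them.

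*Clec9a* has a neighbour that macrophages and sinusoidal endothelium express. In the GENCODE M21 annotation of GRCm38, *Clec9a* lies on the plus strand at chr6:129408862-129424763 and *Clec1b*, which encodes the C-type lectin CLEC-2, on the same strand at chr6:129397297-129409335. The genes share 474 bases, and the whole of exon 1 of the transcript *Clec9a*-201 lies inside exon 2 of *Clec1b*-204, a transcript with a retained intron. Whether the reference transcriptome on which the study counted reads holds that *Clec1b* transcript was not checked. The coding part of that *Clec9a* exon, chr6:129408955-129409045 on the plus strand, is shown because its 91 bases are also part of the *Clec1b* transcript. The start codon of *Clec9a* is in capitals.
Clec9a exon 1, coding part: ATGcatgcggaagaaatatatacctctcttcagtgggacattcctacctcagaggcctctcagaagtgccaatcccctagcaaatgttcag

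*Clec1b* was detected in 84.8% and 76.9% of the nuclei with *Clec9a* alone and in 61.2% and 60.9% of macrophage nuclei, in 58.3% and 42.9% of *Xcr1*-positive nuclei (7 of 12 and 6 of 14), and in 14.3% and 8.33% of *Siglech*-positive nuclei. Its level was 1144 and 1111 CPM in nuclei with *Clec9a* alone and 589.9 and 744 CPM in macrophage nuclei. Those macrophage nuclei had no *Clec9a* UMI by definition. Of 467 and 1045 nuclei with macrophage markers and any *Clec9a* count, 185 and 382 had a *Clec9a* UMI. *Clec1b* was found in 80.5% and 75.4% of these and in 61.3% and 60.9% of the rest. Members held 24.1% of the *Clec9a* UMIs of all nuclei within the size limits in the Flox library and 27.3% in the other, while 229 and 230 *Clec9a* UMIs lay in endothelial nuclei. *Zbtb46* was even less restricted, with 9.20% and 5.83% of its UMIs in members. *Siglech*, in contrast, had 87.8% and 93.0% of its UMIs in them. Whether reads of one gene were counted for the other was not tested.

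The nuclei just inside and just outside the threshold showed the same division. With exactly 2 rule UMIs there were 41 and 96 nuclei, and 89.0% and 87.0% of those UMIs came from *Zbtb46* and *Clec9a*. Macrophage genes summed to 14582 and 11680.5 CPM in them, against 8321 and 9175 CPM in the 142 and 409 nuclei with 1 rule UMI. They summed to 13224.5 and 10007 CPM in the 14 and 26 nuclei with 3 rule UMIs, and to 4053 and 5914 CPM in the 47 and 37 with 4 or more. pDC markers also were higher at 2 UMIs than at 1, at 2541 and 2960 CPM against 1589 and 1689 CPM. The lists parted only above that, as pDC markers reached 3180 and 3670 CPM at 3 UMIs and 14639 and 13702 CPM at 4 or more. The exclusion genes removed 201 and 162 nuclei that met the other limits, and the limit of 6000 UMIs removed 38 and 19.

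**Figure D2:**
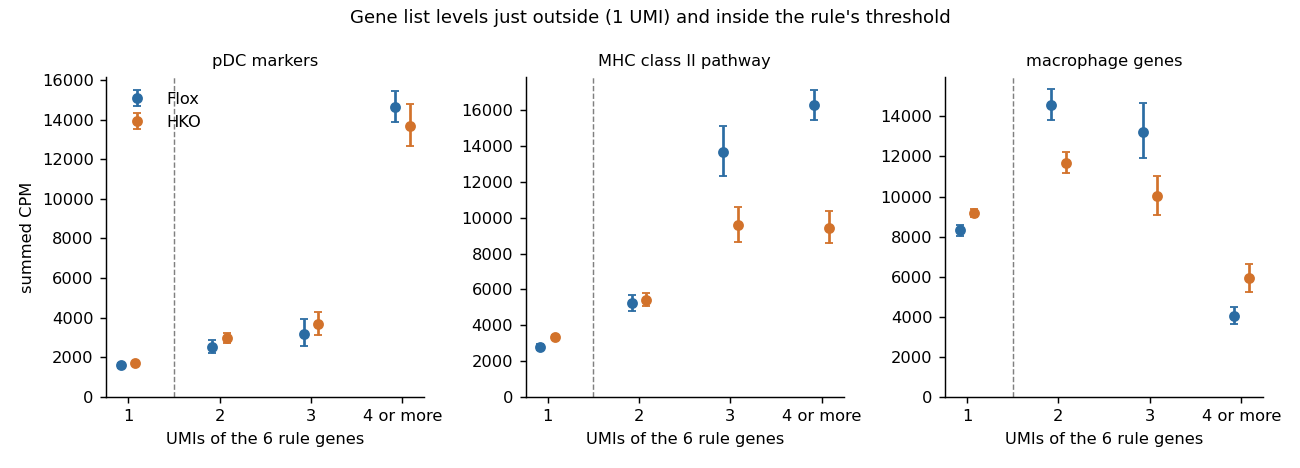
Summed CPM (vertical axis, from 0) of 22 pDC markers, 13 MHC class II pathway genes and 24 macrophage genes in nuclei grouped by their UMIs of the 6 rule genes (horizontal axis). Points are the Flox and HKO libraries, whiskers are exact Poisson 95% intervals, and nuclei right of the dashed line were selected. Macrophage genes are highest at 2 UMIs in either library, and pDC markers at 4 or more.

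*Siglech*-positive nuclei carried the pDC program. Each of the 28 Flox nuclei had between 1 and 15 *Siglech* UMIs, with a median of 6, and the median in the 24 nuclei labelled HKO was 4. The 22 pDC markers, none of which was used by the rule, summed to 27976 CPM in the Flox library and 25882 CPM in the other, against 2118 and 1972 CPM in macrophage nuclei, 3317 and 2769.5 CPM in B cell nuclei and 782 and 740.3 CPM in hepatocyte nuclei. When 500 UMIs were drawn at random from each nucleus (thinning, which sets all nuclei to 1 depth), the pDC markers numbered 14 UMIs in the median Flox nucleus and 12.5 in the median nucleus labelled HKO. No *Siglech*-positive nucleus was without them, and the lowest had 2 and 4, whereas the median macrophage nucleus had 1.

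*Tcf4*, the defining factor of pDC, was measured at 7141 CPM in Flox and 6480 CPM in the other library, against 389 and 376 CPM in macrophages. Its pooled log2 difference was 4.16, and 4.18 and 4.09 within the libraries. Among the 500 drawn UMIs it was found in 96.4% and 100% of *Siglech*-positive nuclei and in 6.26% and 8.32% of nuclei of hepatocytes. The latter had medians of 7514.5 and 6008 UMIs when all their UMIs were taken. *Irf8* reached 4509.9 and 4155 CPM against 395 and 413 CPM, a log2 difference of 3.41. *Bcl11a*, a zinc finger factor required for pDC, was at 2701 and 2744 CPM with 115 and 72 UMIs, while macrophages held 0 and 3 of its UMIs. *Runx2*, which permits pDC to leave the bone marrow, was at 1362 and 2020.2 CPM against 1.58 and 15.8 CPM. *Spib*, an ETS factor of pDC and B cells, had 11 and 10 UMIs, and none in macrophage nuclei. These factors were high in each library, and the factor *Id2*, which marks cDC, had 1 UMI in Flox and none in the other.

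Among surface molecules *Ccr9*, the chemokine receptor of gut- and liver-homing pDC, stood at 2255 and 1563 CPM in *Siglech*-positive nuclei, with 1 UMI in Flox macrophages and none in the others. *Bst2* (tetherin, the PDCA-1 antigen) was at 1315 and 839 CPM against 185 and 143 CPM, a log2 difference of 2.80. *Cd4*, which mouse pDC express as well as T cells, had 16 and 5 UMIs. *Il7r*, the interleukin-7 receptor, was at 705 and 724 CPM. *P2ry14*, a receptor for UDP-sugars, was at 1574 and 1334 CPM, with no UMI in B cell nuclei. *Cd22*, an inhibitory receptor of B cells, had no UMI in *Siglech*-positive nuclei of either library, against 848 and 595 CPM in B cell nuclei. *Ighm*, transcribed in pDC as well as in B cells, had 34 and 14 UMIs, or 799 and 534 CPM against 3206 and 1818 CPM in B cells.

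By the rule for leading genes, the 12 highest against macrophages were *Bcl11a*, *Ccr9*, *Lrp8*, *Cacna1e*, *Grm8*, *Runx2*, *Klk1*, *Mctp2*, *Gria3*, *Cyb561a3*, *Spib* and *Eldr*. Several encode proteins of excitable membranes: *Cacna1e* a calcium channel, *Grm8* a metabotropic glutamate receptor and *Gria3* an AMPA receptor subunit. *Cacna1e* was measured at 681 and 1334 CPM against 4.74 and 0.929 CPM. *Grm8* had 22 and 14 UMIs and *Gria3* 19 and 10, with none of either in macrophage nuclei. *Lrp8*, the apolipoprotein E and reelin receptor, was at 939.6 and 762 CPM with 1 UMI in all macrophage nuclei. *Klk1*, a kallikrein protease, had 24 and 10 UMIs, *Cyb561a3*, a lysosomal cytochrome, was at 1010.0 and 953 CPM against 7.91 and 9.29 CPM, and the RNA *Eldr* at 564 and 534 CPM against 7.91 and 1.86 CPM. *Mctp2* differed more between the libraries, at 1691 and 609.9 CPM. In total 170 of 818 genes were higher (20.8%) and 154 lower (18.8%) than in macrophages. Of the pDC markers 17 had enough UMIs and all 17 were higher, with a median log2 difference of 5.29 against 0.14 for all 818 genes, while the other 5 were too sparse. The median was the same with the 4 genes that had no macrophage UMI set at a bound of 3 UMIs over both macrophage groups. Of 9 tested dendritic cell transcription factors 7 were higher, namely *Irf8*, *Tcf4*, *Spib*, *Bcl11a*, *Runx2*, *Ikzf1* and *Cbfa2t3*, and *Id2* and *Zeb2* were lower.

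Promoters of *Siglech* and *Ccr9* are shown because these genes mark the *Siglech*-positive nuclei, in which *Tcf4* was high, and TCF4 binds E-box motifs. The windows are RefSeq sequences on GRCm38.p6 from 250 bases before to 50 bases after the start of each gene, on the plus strand at chr7:55767934-55768233 for *Siglech* and chr9:123766961-123767260 for *Ccr9*. Capitals mark the E-box CACCTG on either strand, which occurs 1 time in each. Another E-box form that was searched, CAGCTG, occurs 0 times in each.
Siglech promoter: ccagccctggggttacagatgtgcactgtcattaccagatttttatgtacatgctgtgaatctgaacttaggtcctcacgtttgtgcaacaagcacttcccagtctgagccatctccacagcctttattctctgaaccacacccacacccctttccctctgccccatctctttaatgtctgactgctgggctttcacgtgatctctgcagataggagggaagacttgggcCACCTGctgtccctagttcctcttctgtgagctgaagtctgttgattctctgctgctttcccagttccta
Ccr9 promoter: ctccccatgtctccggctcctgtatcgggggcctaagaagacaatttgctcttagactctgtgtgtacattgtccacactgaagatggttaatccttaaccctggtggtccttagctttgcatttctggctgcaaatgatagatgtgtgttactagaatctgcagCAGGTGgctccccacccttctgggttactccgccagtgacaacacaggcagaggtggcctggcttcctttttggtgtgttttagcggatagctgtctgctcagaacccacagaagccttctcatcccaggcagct

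CACCTG was found in 20.0% and CAGCTG in 16.1% of 27025 mouse promoters of the same length, so that a match is common and is a description of the letters only.

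Macrophage genes were low in *Siglech*-positive nuclei. The list of 24 summed to 4064 and 4536 CPM, and 13 of the 15 genes tested were lower than in macrophages. Of all 818 genes tested 18.8% were lower. The direction was in part set in advance, since the reference nuclei were chosen by macrophage markers. The 8 lowest genes were *Lpl* (lipoprotein lipase), *Dmpk*, *C1qc* (complement), *Mertk* (a receptor for the uptake of dead cells), *Mmp12* (macrophage elastase), *Abca1* (cholesterol export), *Fgd4* and *Sema6d*. None of *Lpl*, *C1qc*, *Mertk*, *Mmp12* and *Abca1* had a UMI in *Siglech*-positive nuclei, which allows levels of up to 70.5 CPM in Flox and 114 CPM in the other library. In macrophage nuclei *Lpl* was at 772 and 1373 CPM, *C1qc* at 1200.4 and 638 CPM and *Mertk* at 753 and 790.1 CPM. *Apoe* remained detectable at 540.2 and 1144 CPM, against 3305 and 3285 CPM in macrophages and a list of 7 hepatocyte genes outside the rule at 2819 and 1715 CPM. *Mpeg1* (perforin-2), on the macrophage list, was higher, at 2114 and 1677 CPM against 603 and 597 CPM.

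Several groups linked to pDC function were too sparse for a statement. The 13 cytokine genes on the list summed to 258 and 343 CPM, and *Ifnb1* had no UMI in any selected nucleus. *Tlr7* and *Tlr9*, the RNA and DNA sensors of pDC, had 8 and 2 UMIs in Flox and none in the other library, where 0 UMIs allow up to 114 CPM. *Unc93b1*, which carries these receptors to endosomes, was at 1503 and 1220.0 CPM against 1219 and 929 CPM in macrophages, a log2 difference of 0.43 that did not reach 2-fold. Interferon-stimulated genes summed to 2278 and 1487 CPM against 2182 and 1852 CPM. Of the 4 tested, *Bst2* was higher and *Oas2*, with no UMI in *Siglech*-positive nuclei, was lower. MHC class II genes were at 4909 and 3469 CPM, against 4627 and 4933 CPM in macrophages, so that the sum was lower in the library labelled HKO alone. Of 6 tested none was higher and *Lgmn*, an endosomal protease, was lower. The calls in these lists stand beside 20.8% higher and 18.8% lower among all 818 genes tested, and say little about either list.

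**Figure D3:**
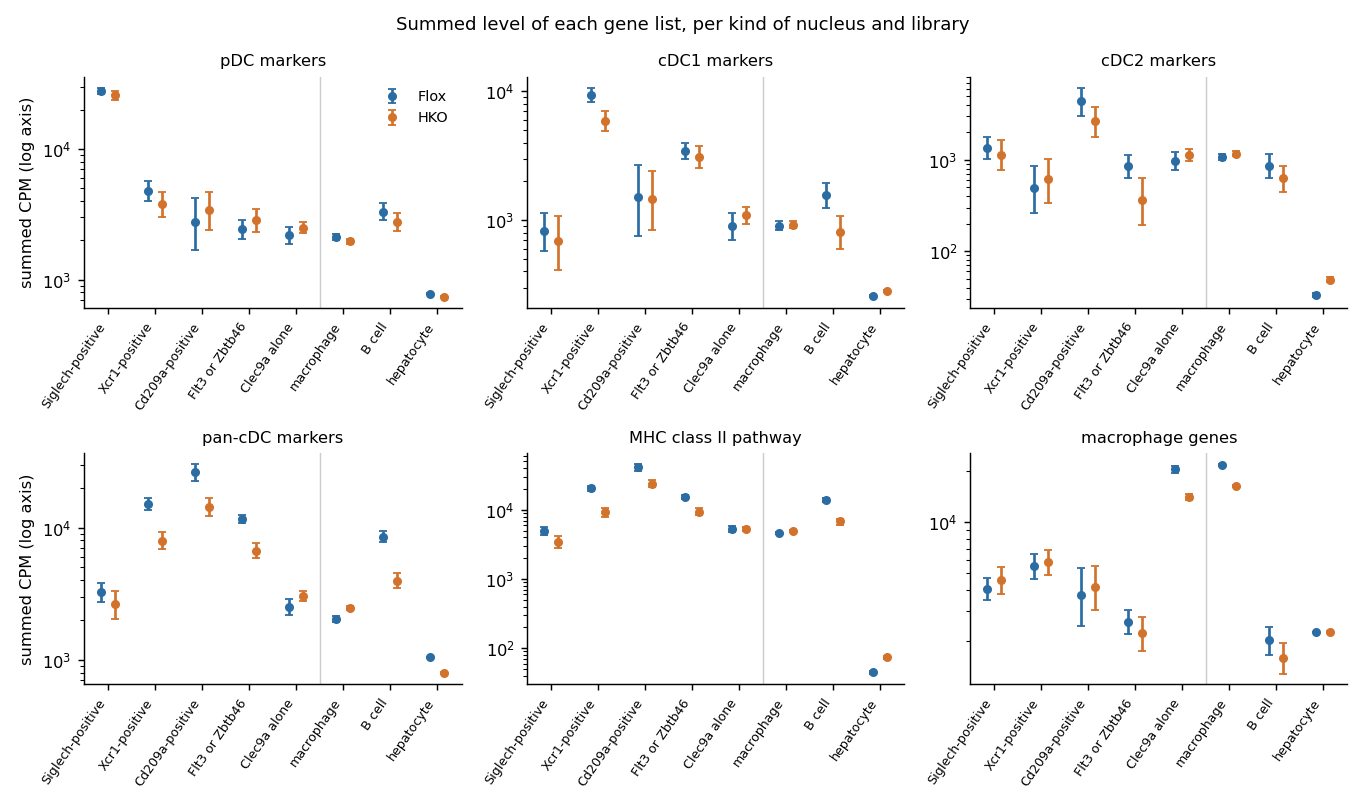
Summed CPM of 6 gene lists (vertical axes, log scale) in the kinds of selected nuclei, left of the grey line, and in macrophage, B cell and hepatocyte nuclei, right of it. Points are the Flox and HKO libraries with exact Poisson 95% intervals. pDC markers peak in *Siglech*-positive nuclei, cDC1 markers in *Xcr1*-positive nuclei, cDC2 markers and MHC class II in *Cd209a*-positive nuclei, and nuclei with *Clec9a* alone lie near macrophages.

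*Siglech*-negative nuclei other than those with *Clec9a* alone carried genes of cDC. Their 85 nuclei had median totals of 1909 UMIs in Flox and 1286 in the other library. Of 2161 genes tested 231 were higher (10.7%) and 265 lower (12.3%) than in macrophages. With the nuclei of *Clec9a* alone included, 133 of 4625 genes were higher (2.88%) and 31 lower (0.67%). Pan-cDC markers summed to 13786 and 8314 CPM against 2046 and 2469 CPM in macrophages, and 11 of the 11 tested were higher. They include *H2-Ab1*, *Cd74* and *Ciita*, which are also on the MHC class II list. cDC1 markers summed to 5004 and 3772 CPM against 906 and 922 CPM, with 7 of 8 tested higher. cDC2 markers were not above macrophages in sum, at 1029 and 812 CPM against 1069 and 1173 CPM, and of 4 tested *Clec10a* and *Notch2* were higher and *Sirpa* was lower. The macrophage list summed to 3515 and 3700 CPM, and 17 of 19 tested were lower, beside reference nuclei that were chosen by macrophage markers.

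Their leading genes were *Bcl11a*, *Cbfa2t3*, *Kit*, *Gpr141*, *Btla*, *Snx22*, *Gm36723*, *Naaa*, *Olfm1*, *Klrd1*, *Hepacam2* and *Jaml*. *Cbfa2t3* (ETO2), a corepressor, was at 777 and 638 CPM against 6.33 and 12.1 CPM in macrophages. *Naaa*, a lysosomal amidase long used as a cDC1 marker, was at 942 and 769 CPM against 20.6 and 23.2 CPM, a ratio of 32.0. *Btla*, an inhibitory receptor, had 25 and 13 UMIs, and *Kit*, the stem cell factor receptor of dendritic cell precursors and cDC, 26 and 8. *Klrd1* (CD94) had 19 and 17 UMIs and *Jaml*, an adhesion molecule, 12 and 15. All of these were sparse in macrophage nuclei, where *Btla* had 0 and 4 UMIs and *Kit* 0 and 2. The lowest genes against macrophages were *Mmp12*, *Igha*, *Tspan15*, *Ank2*, *Mitf*, *C1qb*, *Bank1* and *Cd207*, of which *Tspan15*, *Ank2* and *Mitf* had no UMI in them. Taking all 261 nuclei instead, the lowest were *Igha*, *Cd163*, *Jchain*, *Fcna*, *Pde8b*, *Adgre4*, *Ccdc125* and *Hmox1*. The limit on *Clec4f* UMIs held for the selected nuclei and not for macrophage nuclei, and its part in these lowest genes was not tested.

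Other groups of the cDC program were sparser. Of the MHC class I and cross-presentation genes 5 of 11 tested were higher in *Siglech*-negative nuclei without *Clec9a* alone, namely *Tap1*, *Tap2*, *Psmb9*, *Wdfy4* and *Rab43*, and none was lower, beside 10.7% higher and 12.3% lower among all genes tested in this comparison. *Tap1*, which carries peptides into the endoplasmic reticulum, was at 329 and 276 CPM against 101 and 91.1 CPM in macrophages. Of 3 tested costimulation and checkpoint genes *Icosl* and *Havcr2* (TIM-3) were higher. Of 11 transcription factors *Irf8*, *Id2*, *Bcl11a*, *Notch2* and *Cbfa2t3* were higher and *Zeb2* was lower, at 449 and 856 CPM against 3509 and 3474 CPM. Cell cycle genes summed to 613 and 711 CPM, against 364 and 352 CPM in macrophages. In *Siglech*-positive nuclei they summed to 47.0 and 114 CPM, on 2 and 3 UMIs.

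Markers of other cells in the liver were given for either subset. T cell genes summed to 587 and 305 CPM in *Siglech*-positive nuclei, of which *Cd4* was the one gene with enough UMIs, and to 11.0 and 0 CPM in *Siglech*-negative nuclei without *Clec9a* alone. B cell genes outside the B cell rule summed to 869 and 648 CPM and to 131 and 87.1 CPM, against 12586 and 7051 CPM in B cell nuclei. Monocyte genes were above macrophage levels in both subsets, at 2349 and 1677 CPM and at 1883 and 1436 CPM against 258 and 276 CPM, with *Ccr2* higher in each. Plasma cell, natural killer, neutrophil, mast cell, endothelial, stellate and cholangiocyte lists stayed at or below 705 CPM in both. Hepatocyte genes were at 2819 and 1715 CPM in *Siglech*-positive nuclei, and at 4019 and 2684 CPM in *Siglech*-negative nuclei without *Clec9a* alone, where *Fgb* was called higher, against 2360 and 1495 CPM in macrophages. Endothelial genes were at 208 and 392 CPM in the latter subset against 196 and 119 CPM. The part of these cells' RNA in the results was not tested.

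The 26 *Xcr1*-positive nuclei had the highest level of cDC1 markers among the kinds of selected nuclei. Those markers, none of them rule genes, summed to 9415 and 5895 CPM in them, against 1508 and 1471 CPM in *Cd209a*-positive nuclei. They held 247 of the 562 cDC1 UMIs of the selected Flox nuclei and 134 of the 458 of those labelled HKO. *Irf8* was at 3011 and 2244 CPM. *Naaa* was at 1791.5 and 1276 CPM, *Ppt1*, a lysosomal thioesterase, at 2058 and 836 CPM, and *Wdfy4*, required for cross-presentation, at 839 and 1012 CPM against 53.8 and 51.1 CPM in macrophages. *Tlr3*, the sensor of double-stranded RNA, was at 1258 and 396 CPM with 33 and 9 UMIs, and had none in *Siglech*-positive or *Cd209a*-positive nuclei. *Id2* was at 1601 and 1539.7 CPM. *Batf3*, the factor on which cDC1 depend, had 3 and 2 UMIs, too few to compare. *Clec9a* itself accompanied *Xcr1* in 11 of 12 and 13 of 14 nuclei. The rule forced this in part, since 7 and 5 of the nuclei had 2 or more *Xcr1* UMIs and the rest needed another rule gene to be selected. Macrophage genes were at 5489 and 5807 CPM, above the 2596 and 2209 CPM of the nuclei with *Flt3* or *Zbtb46*, and 1 and 2 *Xcr1*-positive nuclei had 3 or more macrophage marker UMIs.

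The 13 *Cd209a*-positive nuclei were the richest in MHC class II. The list summed to 41118 and 23904 CPM in 4 and 9 nuclei, against 20507 and 9194 CPM in *Xcr1*-positive nuclei. cDC2 markers summed to 4386 and 2666 CPM against 496 and 616 CPM. *Clec10a*, a galactose-binding lectin of cDC2, had 8 and 4 UMIs in them, but 22 and 10 in *Siglech*-positive nuclei, of which 4 and 4 also had *Cd209a*. *Ccr2* was at 4249 and 1471 CPM, with 31 and 16 UMIs, against 1791.5 and 836 CPM in *Xcr1*-positive nuclei. *Klrd1* had 2 and 10 UMIs, *Gpr141* 8 and 6, and *Irf4*, a factor of cDC2, 0 and 1. With 7296 and 10877 UMIs in all, 1 UMI stood for about 137 and 91.9 CPM in these nuclei, and the levels of single genes are correspondingly coarse.

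The nuclei with *Flt3* or *Zbtb46* were mixed. MHC class II summed to 15192 and 9429 CPM and cDC1 markers to 3443 and 3115 CPM, but 4 and 3 of the nuclei had 10 or more hepatocyte marker UMIs. The 8 and 5 nuclei with *Zbtb46* alone had a median of 0 MHC class II UMIs after thinning, and hepatocyte genes outside the rule at 6293 and 5897 CPM, against 4019 and 2684 CPM in all *Siglech*-negative nuclei without *Clec9a* alone. No MHC class II UMI was left after thinning in 5 of the 8 and 3 of the 5, so that the dendritic cell label was not borne out in most of them. Mature dendritic cell genes were highest in the group with *Flt3* or *Zbtb46*, at 2388 and 1246 CPM against 114 and 264 CPM in *Xcr1*-positive nuclei and 691 and 635 CPM in hepatocyte nuclei. *Ccr7*, which guides mature dendritic cells to lymph nodes, had 9 UMIs in Flox and 1 in the other library, and *Relb* 18 and 3, in the *Siglech*-negative nuclei without *Clec9a* alone.

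**Figure D4:**
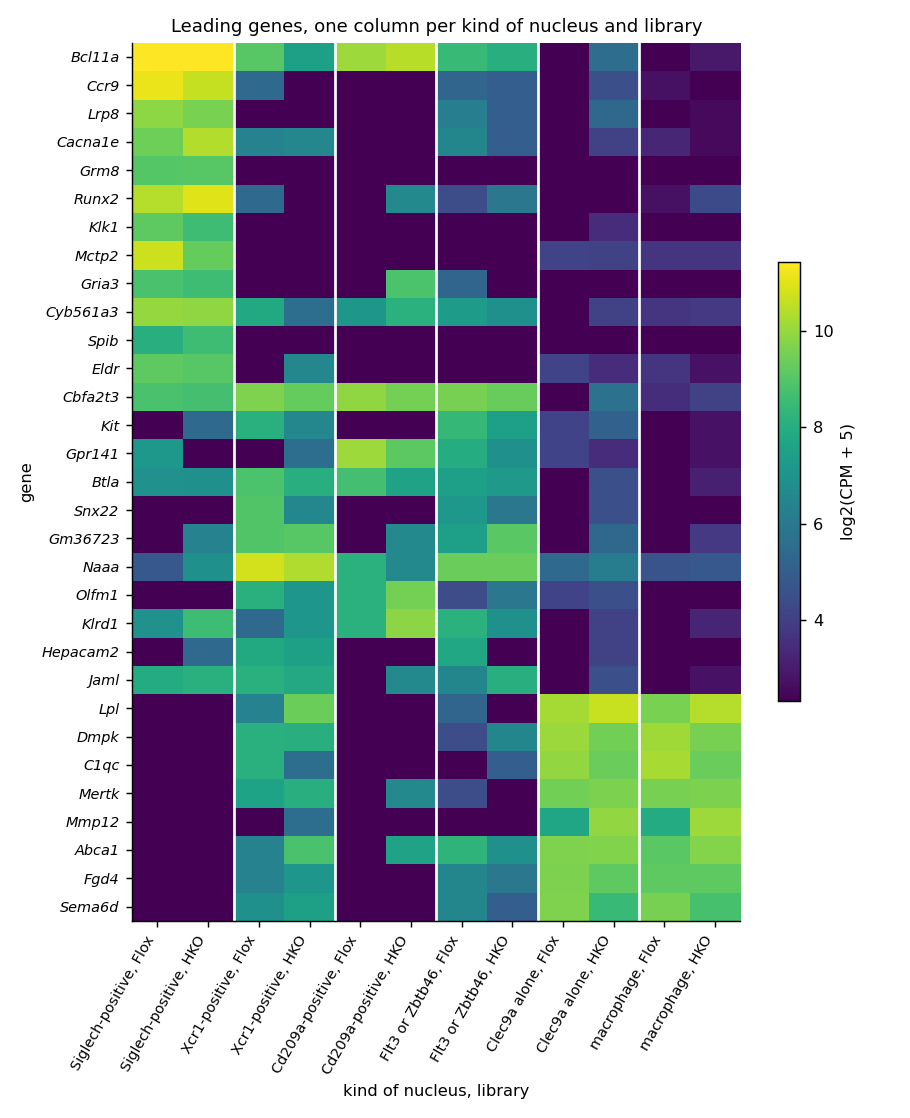
Levels of the leading genes (rows) as log2(CPM + 5) in each kind of nucleus and library (columns), with darkest squares at 0 UMIs. The first 12 genes lead in *Siglech*-positive nuclei against macrophages and the last 8 are the lowest there, and those between lead in *Siglech*-negative nuclei without *Clec9a* alone. Columns for *Clec9a* alone resemble those of macrophages, with *Lpl* at 1157 and 1597 CPM.

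*Siglech*-positive and *Siglech*-negative nuclei were then set against each other. Against all *Siglech*-negative nuclei 145 of 764 genes were higher (19%) and 105 lower (13.7%). The highest were *Grm8*, *Mctp2*, *Runx2*, *Ccr9*, *Klk1* and *Spib*. The lowest, *Lpl*, *Abca1*, *Dmpk*, *Mertk*, *C1qc* and *Mmp12*, were all among the lowest against macrophages as well. Of the *Siglech*-negative nuclei, those with *Clec9a* alone had *Lpl* at 1157 and 1597 CPM and *Mertk* at 707 and 795 CPM. Without those nuclei 144 of 730 genes were higher (19.7%) and 71 lower (9.73%), and among the lowest were then *Tlr3*, *Id2*, *Slfn5*, *Errfi1* and *Csf2ra*. *Id2* was then at 1292 and 1088 CPM against 23.5 CPM in Flox *Siglech*-positive nuclei and none in the others. *Csf2ra*, the receptor for GM-CSF, was at 339 and 406 CPM against 23.5 and 0 CPM.

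MHC class II differed between the subsets as well. *H2-Aa* was at 1127 and 800.5 CPM in *Siglech*-positive nuclei and at 3909 and 2437 CPM in *Siglech*-negative nuclei without *Clec9a* alone. *Cd74*, the invariant chain, was at 1292 and 686 CPM against 5409 and 2626 CPM. Of 8 genes of the list with enough UMIs 5 were lower in *Siglech*-positive nuclei, beside 9.73% of all 730 genes tested in this comparison. They were *H2-Aa*, *H2-Ab1*, *H2-Eb1*, *Cd74* and *Ciita*, the class II transactivator, at 211 and 114 CPM against 777 and 739.9 CPM. Against macrophages, 7 of 10 were higher in the *Siglech*-negative nuclei without *Clec9a* alone, beside 10.7% of all 2161 genes tested. The median log2 difference was 1.84 beside -0.016 for all 2161 genes. Of the class II genes that were higher, *H2-Ab1*, *Cd74* and *Ciita* were also counted with the pan-cDC markers.

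Between the libraries, MHC class II was lower in the cDC-bearing nuclei labelled HKO, and the sum of pDC markers in *Siglech*-positive nuclei was close to equal. In *Siglech*-negative nuclei without *Clec9a* alone the list summed to 18790.4 CPM in Flox and 11636 CPM in the other, a ratio of 0.62 (0.57 to 0.67, counting error only). Other lists were lower with it in these nuclei: pan-cDC markers had a ratio of 0.60 (0.55 to 0.67), cDC1 markers 0.75 (0.64 to 0.88) and hepatocyte genes 0.67 (0.56 to 0.80). The pan-cDC list holds *Cd74*, *H2-Ab1* and *Ciita* of the class II list, so its ratio is not separate from that of class II. The part of the other lists in the class II difference was not tested. *Cd74* stood at 5409 and 2626 CPM on 494 and 181 UMIs, and *H2-Ab1* stood at 3953 and 2350 CPM. The order was the same in *Xcr1*-positive, *Cd209a*-positive and *Flt3* or *Zbtb46* nuclei, and B cell nuclei also had the lower sum in the library labelled HKO, 6796 against 13857 CPM. Macrophage nuclei went slightly the other way, with 4627 and 4933 CPM and a ratio of 1.07 (1.02 to 1.12). Nuclei with *Clec9a* alone had a ratio of 1.01 (0.90 to 1.14).

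The spread between nuclei was wide beside that difference. Thinned to 500 UMIs, *Siglech*-negative nuclei without *Clec9a* alone had a median of 9 MHC class II UMIs in Flox, with quartiles of 2 and 17, and a median of 6 in the other library, with quartiles of 3 and 10. *Xcr1*-positive nuclei had medians of 8.5 and 6 and *Cd209a*-positive nuclei of 20 and 14, and the ranges of the libraries overlapped in each kind. The direction also depended on the limit of 6000 UMIs: with no upper limit the ratio for these nuclei was above 1, with a log2 value of 0.29. Cells are not replicates, and with 1 library per group no replicate check was possible.

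**Figure D5:**
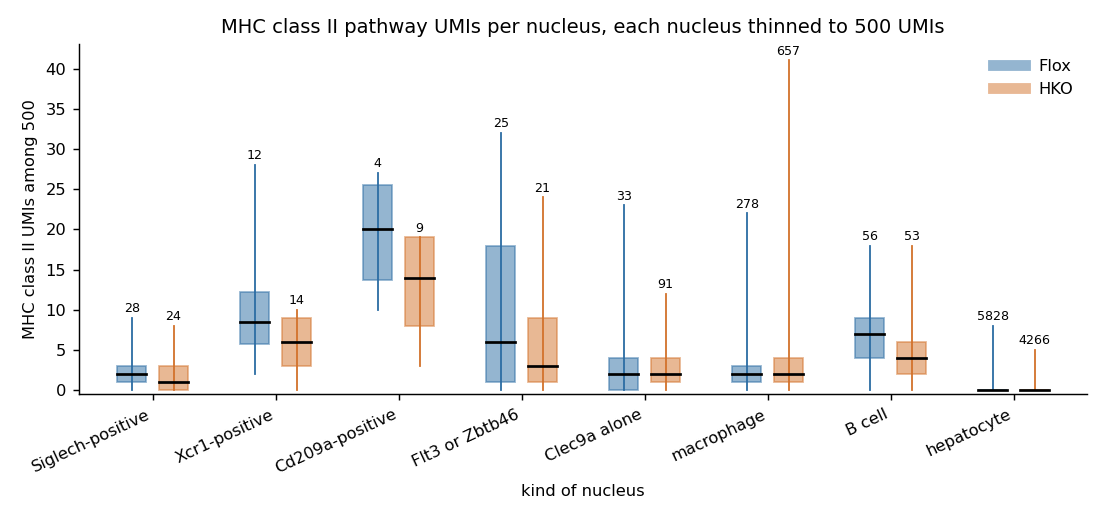
MHC class II pathway UMIs per nucleus (vertical axis) after each nucleus was thinned to 500 UMIs, by kind of nucleus (horizontal axis) and library. Lines span lowest to highest, boxes the quartiles, black bars are medians and numbers are nuclei. Medians are 20 and 14 in *Cd209a*-positive nuclei and 2 and 2 in macrophages.

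In *Siglech*-positive nuclei the pDC markers summed to 27976 and 25882 CPM, a ratio of 0.93 (0.84 to 1.02), and an interval from 0.84 to 1.02 bounds the difference that counting error leaves. MHC class II had a ratio of 0.71 (0.55 to 0.91), on 209 and 91 UMIs. Nucleic acid sensing genes had 0.66 (0.45 to 0.94), on 111 and 45 UMIs, and interferon-stimulated genes 0.65 (0.44 to 0.96). MHC class I and cross-presentation genes had 0.79 (0.63 to 0.99) and hepatocyte genes 0.61 (0.42 to 0.86). Dendritic cell transcription factors had 0.97 (0.87 to 1.09) and cytokine and growth factor receptors 1.05 (0.77 to 1.42). Mature dendritic cell genes in *Siglech*-negative nuclei without *Clec9a* alone had a ratio of 0.47 (0.34 to 0.65).

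Over all 261 nuclei the genes highest in the library labelled HKO were *Mmp12*, *Plk2*, *Kctd12b*, *Slc12a7* and *Trem2*, a lipid receptor of macrophages. *Mmp12* had 16 UMIs in 3 Flox nuclei and 163 UMIs in 30 of the others, a ratio of 8.30 (4.96 to 14.9), and all but 1 of those 163 lay in nuclei with *Clec9a* alone. Its log2 difference in macrophage nuclei was 2.15. The lowest were *Mup11*, *Ccl2*, *Cxcl1*, *Marco* and *Mctp2*. *Mup11*, a major urinary protein of hepatocytes, had 19 UMIs in 17 Flox nuclei and 1 in the others, and its log2 difference was -5.24 in hepatocyte nuclei and -4.00 in macrophages. Of the 41 Flox UMIs of the chemokine *Ccl2* 34 lay in 1 nucleus, as did 22 of the 27 of *Cxcl1*. *Mctp2*, which encodes a calcium-binding membrane protein, had 73 UMIs in 24 nuclei and 18 in 14, with most of them in *Siglech*-positive nuclei.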

How the data were processed

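Single-nucleus 3′ RNA-seq was measured in 2 liver libraries, 1 per genotype. The authors deposited raw UMI counts per gene and nucleus, made with Cell Ranger 8.0.1 on GRCm38 (mm10) with intronic reads excluded, per the study's methods and processing notes. The study's methods remove doublets, but barcodes under 300 genes remained in the deposited matrices, and doublet removal before deposit is not stated for them. None were removed here, except in an alternative with Scrublet (scanpy 1.11.5, expected rate 0.8% per 1000 barcodes), which removed 0 and 12 selected nuclei.

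The selection rule, the members and the 28 gene lists were chosen with earlier results of these data known, and the split of *Siglech*-negative nuclei was added after their values were seen. Counts were summed per kind of nucleus and library (Python 3.11.15, scipy 1.17.1) and divided by the total to give CPM. Ratios used CPM + 5, for genes with at least 20 UMIs in the subset. For the lower direction, genes that would reach 20 UMIs at the reference level were included, a choice made after seeing the data. Rule genes were left out of every list and count. Comparison nuclei needed 3 or more UMIs of macrophage, B cell or endothelial markers, or 10 of hepatocyte markers, and at most 1 UMI of the other exclusion genes. Intervals are exact (Poisson, Clopper-Pearson or conditional binomial), at 95%, and cover counting error only, as do limits for 0 UMIs, set at 3 counts per library. No test was made, since nuclei are not replicates. Shares of nuclei with a UMI were also taken after thinning each nucleus to 500 UMIs. The fold step was run on counts simulated from pooled macrophage means without a library difference. That run bears on its arithmetic only and does not check the calls made here. An alternative used TMM factors (edgeR 4.0.16, R 4.3.3).

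Named genes were all rule genes, the 12 highest against macrophages in each subset, the 8 lowest over all nuclei with 50 or more macrophage UMIs, the 6 highest and lowest between subsets, the 5 highest and lowest between libraries, and of each list those with the largest differences or a defining role. *P2ry14*, *Cd22*, *Relb*, *Irf4*, *Ifnb1* and *Clec1b*, and the lowest genes of single subsets, were chosen after their values were seen. Some genes that these rules name are not reported here.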

Additional observations from a re-analysis of the deposited data

Results flagged for a closer look

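The libraries differed in opposite directions in different kinds of nuclei. The share of nuclei with *Clec9a* alone was higher in the library labelled HKO, at a ratio of 2.41, which was 1.51 among nuclei other than hepatocytes and 1.17 per macrophage nucleus, while the ratios for *Siglech*-positive nuclei and for *Siglech*-negative nuclei without *Clec9a* alone were 0.748 and 0.937, with intervals that include 1. The MHC class II sum was higher in macrophage nuclei of the library labelled HKO, at a ratio of 1.07, and lower in the *Siglech*-negative nuclei without *Clec9a* alone, at 0.619. With 1 library per group these differences were not tested.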

How the results depend on the processing

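No paired analysis was possible because there was 1 library per group and no result came from a test, and no replicate could be left out. Depth limits most statements: the medians of 1443.5 and 1067.5 UMIs per *Siglech*-positive nucleus left 818 genes to compare. The cause of the changes below was not tested, and alternatives with *Clec9a* alone left out or at most 2 hepatocyte marker UMIs were chosen after seeing the data. Of the named genes 545 values kept their direction and 2-fold call, 31 lost the call and 0 reversed. A call was lost when the value fell under 2-fold or when the gene had too few UMIs to be tested. Leaving out *Clec9a* alone does not alter the *Siglech*-positive or the other *Siglech*-negative nuclei, so their values were kept there by construction. Of the other values 209 stayed close, 78 moved and 6 reversed.

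The log2 ratio of shares of all selected nuclei, 0.44, became -0.15 with 3 rule UMIs, -0.17 with 2 of the 6 genes, -0.032 after thinning and -0.22 without *Clec9a* alone. For *Siglech*-negative nuclei without *Clec9a* alone thinning took it from -0.094 to -0.93. *Siglech*-positive nuclei, 27.5% of the selected in Flox and 15.1% in HKO, became 44.3% and 28.6% with 3 rule UMIs, 39.2% and 30.8% with 2 genes, 40.6% and 26.4% with at most 1 macrophage marker UMI, 46.0% and 33.9% after thinning, and 40.6% and 35.3% without *Clec9a* alone.

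Against macrophages, genes higher and lower in *Siglech*-positive nuclei, 170 and 154, were 801 and 1964 with no filter and 49 and 36 with 50 UMIs, and 95 were lower with 2 genes. For all *Siglech*-negative nuclei 133 and 31 became 268 and 153 with no upper UMI limit, 222 and 264 with at most 1 macrophage marker UMI, 231 and 265 without *Clec9a* alone, 83 and 14 with a prior of 20 CPM, 399 and 157 with no filter, 41 and 9 with 50 UMIs, and 219 and 76 with the fold needed in pooled counts only. Lower genes numbered 78 with 3 rule UMIs, 186 with 2 genes and 51 with TMM factors. Without *Clec9a* alone 231 and 265 became 660 and 741 with no upper limit, 146 and 156 with 3 rule UMIs, 990 and 1134 with no filter, and 69 and 116 with 50 UMIs.

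Between subsets, 145 and 105 became 88 and 40 with 2 genes, 681 and 2202 with no filter and 49 and 18 with 50 UMIs, with 64 lower at 1 macrophage marker UMI. Without *Clec9a* alone 144 and 71 became 218 and 142 with no upper limit, 88 and 40 with 2 genes, 708 and 1887 with no filter, and 53 and 14 with 50 UMIs.

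The median log2 difference of pDC markers in *Siglech*-positive nuclei, 5.29, was 4.95 with no upper limit, 5.79 and 4.02 with priors of 1 and 20 CPM, 4.81 with TMM and 3.89 with 50 UMIs. That of cDC1 markers in *Siglech*-negative nuclei without *Clec9a* alone, 3.22, was 1.53 with no upper limit, 3.41 with a tighter upper limit, 3.77 with 3 rule UMIs, 3.62 with 2 genes, 3.32 with no exclusion UMI, 3.29 without Scrublet doublets, 3.58 with few hepatocyte UMIs, 3.33 and 2.93 with the priors, 2.92 with TMM and 3.03 with 50 UMIs. That of MHC class II was 0.34 with no upper limit in place of 1.84.

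The log2 ratio of MHC class II between libraries was -0.70 in all selected nuclei, 0.047 with no upper limit, -0.55 without Scrublet doublets and -0.53 with TMM. In *Siglech*-negative nuclei without *Clec9a* alone it was -0.69, 0.29 with no upper limit, -0.56 with no exclusion UMI, -0.46 without Scrublet doublets and -0.55 with few hepatocyte UMIs.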
